A study of Mus musculus with 6 samples.

Results

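The 6 genes described here act at the nuclear end of Notch signalling: Rbpj, Hes1, Hey1, Hey2, Heyl and Nrarp. They were taken from the deposited table by gene symbol, and all 6 were found among its 10989 genes. RNA came from the brain of mice carrying Tie2-cre and NuTRAP, and the titles of all 6 libraries carry the label WT. Tie2-cre expresses Cre from the promoter of Tek, which is active in endothelial cells and also in some blood-derived cells. NuTRAP is a Cre-dependent reporter that puts EGFP on ribosomes and mCherry on nuclei. The 3 Input libraries hold RNA of the dissociated brain suspension, and the 3 Positive libraries hold RNA of cells sorted from it as EGFP and CD31 positive and CD11b negative, and each fraction has the numbers 1222, 1223 and 1227. The design text calls them biological replicates, and no label says whether a number marks a mouse. The age of the mice is not given in the sources used here. Input itself contains endothelial cells, so each fold change sets sorted cells against a mixture that includes them.

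In Notch signalling a ligand on one cell binds a receptor on its neighbour, the receptor is cleaved, and its intracellular domain enters the nucleus. There it joins Rbpj, the DNA-binding protein of the pathway, which otherwise sits with corepressors. Hes and Hey genes are direct targets and encode basic helix-loop-helix repressors, while Nrarp encodes an ankyrin-repeat protein that limits the pathway. In blood vessels Notch is known for arterial identity and for holding back sprouting, and in the brain it also acts in astrocytes, neural progenitors and the mural cells of vessels.

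The 6 genes did not move together. Hes1 and Hey1 were higher in the sorted cells, Hey2 and Nrarp were lower, and Heyl and Rbpj did not pass the test (edgeR's quasi-likelihood test, Benjamini-Hochberg adjusted p below 0.05 over all genes). Over all 10989 genes 26.1% were higher and 29.4% lower in Positive, 55.5% in either direction, so 4 of 6 called is near the background. The median log2 fold change was 0.17 over the 6 genes and 0.03 over all genes. All 3 Positive libraries lay above all 3 Input libraries for Hes1 and Hey1, as for 31.8% of all genes, and below them for Hey2 and Nrarp, as for 32.6%; either held for 64.4% of all genes. Levels are given as CPM, counts scaled to a common library size with TMM factors.

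**Figure D1:**
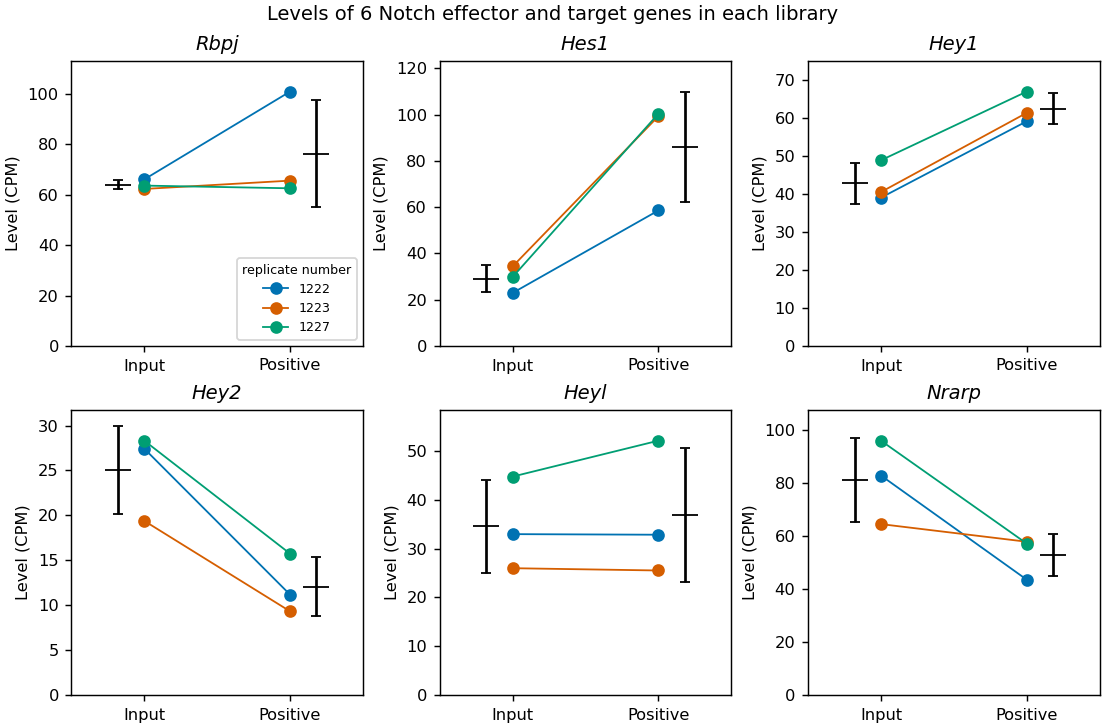
Levels of the 6 genes in each library, in CPM on a linear axis from 0, for Input and Positive. Coloured points are libraries, lines join the 2 libraries of one replicate number, and black bars give the mean ± SD of 3 libraries. Hes1 and Hey1 lie higher in every Positive library than in any Input library, Hey2 and Nrarp lie lower, and Rbpj stands apart only in Positive 1222.

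The sort itself can be read from marker genes. Summed estimated counts over the table ran from 4772866 to 52283556 per library, lowest in both 1223 libraries. All 12 pan-endothelial markers rose (median log2 2.85), from a summed 3010 to 3936 CPM in Input to 23140 to 24600 CPM in Positive. Pecam1, which encodes CD31, rose by log2 2.85 ± 0.13 (SE), Tek by 2.76 ± 0.18, and Itgam, which encodes CD11b, fell by 2.77 ± 0.31 on the log2 scale. All 13 astrocyte, 9 oligodendrocyte and 10 microglial markers fell. Markers of perivascular macrophages were uneven, summing to 1945, 704.2 and 279.1 CPM in Positive 1222, 1223 and 1227 against 226.7 to 304.1 CPM in Input.

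Rbpj (Entrez 19664, chromosome 5, 53555779 to 53657445, plus strand, mm10) is the factor through which all Notch receptors act on DNA. It stood at 66.1, 62.3 and 63.7 CPM in Input 1222, 1223 and 1227 and at 101, 65.6 and 62.6 CPM in Positive. The Input libraries lay close together, and in Positive only 1222 lay above them while 1223 and 1227 lay inside their range. The means were 64.0 ± 1.93 and 76.4 ± 21.3 CPM (SD, n = 3), and the log2 fold change was 0.26 ± 0.19 (SE), adjusted p = 0.291 by edgeR. The 95% confidence interval of the log2 fold change, from -0.19 to 0.70, leaves room for a rise of that size as well as for none. Without Positive 1222 the log2 fold change was -0.00048. Positive 1222 was also the library with the highest sum of macrophage markers, at 1945 CPM. Its sum of microglial markers was the highest among Positive libraries, 2780 CPM against 1575 in 1223 and 1396 in 1227. All of these lay below the 6271 to 11400 CPM of Input. All 6 genes of the macrophage list were measured, 5 of them rose, and none averaged below 1 CPM in Positive. Over all genes 26.1% were higher. The fractions overlapped for each macrophage gene. Their log2 differences ran from 2.06 to 3.00 within 1222 and from 0.06 to 0.45 within 1227. The part of macrophages and microglia in the Rbpj value was not tested. In a bulk sample fewer cells of a type and less RNA per cell cannot be told apart. GENCODE release M21 lists processed copies named Rbpj-ps1 and Rbpj-ps3, whose reads the authors' counting could have assigned to Rbpj or split from it.

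Hes1 (Entrez 15205, chromosome 16, 30065357 to 30067796, plus strand) encodes a repressor that answers quickly to Notch and keeps progenitor cells undifferentiated. Its level was 22.9, 34.4 and 29.8 CPM in Input 1222, 1223 and 1227 and 58.6, 99.3 and 100.4 CPM in Positive. Every Positive library lay above every Input library, and 1222 was the lowest library of each fraction. Hes1 rose from a mean of 29.0 ± 5.77 CPM to 86.1 ± 23.9 CPM (SD, n = 3), which is a log2 difference of 1.58 ± 0.25 (SE, a 2.98-fold rise, adjusted p = 0.000685 by edgeR). This log2 fold change exceeded that of 93.1% of all genes tested. It lay below those of all 12 pan-endothelial markers, which ran from 2.69 to 3.20. Within the replicate numbers 1222, 1223 and 1227 the log2 difference was 1.35, 1.53 and 1.75.

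Hey1 (Entrez 15213, chromosome 3, 8663359 to 8667038, minus strand) encodes a repressor known for its part in arterial development. It was measured at 39.1, 40.5 and 48.9 CPM in Input and at 59.2, 61.4 and 67.0 CPM in Positive. The fractions did not overlap, and replicate number 1227 was the highest in each. Hey1 rose from a mean of 42.8 ± 5.31 CPM to 62.5 ± 4.04 CPM, which is a log2 difference of 0.54 ± 0.14 (adjusted p = 0.0120 by edgeR), and the difference within a number was 0.60, 0.60 and 0.45. The call was narrow: it was lost without Positive 1227 (log2 0.49, adjusted p = 0.0521), without both libraries of 1222 (0.51) or of 1227 (0.60), and when libraries were scaled by size alone (0.39, adjusted p = 0.0510). That last scaling moved the median of all genes by -0.16, and relative to the median Hey1 stood at 0.52 with it and 0.51 in the main fit.

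Hey2 (Entrez 15214, chromosome 10, 30832359 to 30842783, minus strand) encodes the closest relative of Hey1 in this group and is known from arterial and heart development. It stood at 27.4, 19.4 and 28.3 CPM in Input and at 11.2, 9.31 and 15.7 CPM in Positive. All Positive libraries lay below all Input libraries, and 1223 was the lowest in each fraction. Hey2 fell from a mean of 25.04 ± 4.92 CPM to 12.1 ± 3.30 CPM, which is a log2 difference of -1.04 ± 0.26 (adjusted p = 0.00815 by edgeR), and the log2 difference within a number was -1.29, -1.05 and -0.84. Hey2 had 42 estimated counts in Positive 1223, under the authors' minimum of 50, so it was kept in the table through Input alone, which favours a fall; it was the only one of the 6 so kept. Without both libraries of 1222 the fall did not pass (log2 -0.90, adjusted p = 0.0839).

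Heyl (Entrez 56198, chromosome 4, 123233556 to 123249870, plus strand) encodes the remaining Hey protein and is known as a Notch target of vascular mural cells. Its levels were 33.0, 26.0 and 44.7 CPM in Input and 32.8, 25.5 and 52.1 CPM in Positive. The fractions overlapped over nearly the whole range, and in both fractions 1227 was highest and 1223 lowest. The log2 difference within 1222, 1223 and 1227 was -0.01, -0.03 and 0.22, much less than the spread of levels between numbers. The means were 34.6 ± 9.49 and 36.8 ± 13.7 CPM, a log2 fold change of 0.09 ± 0.29 with a 95% confidence interval from -0.57 to 0.75 (adjusted p = 0.808 by edgeR). The sign turned without Positive 1227 (-0.25), Input 1223 (-0.06) or both libraries of 1227 (-0.01) and with scaling by library size alone (-0.06). Among mural markers, 10 of 11 pericyte genes rose, with sums of 752.7 to 884.8 CPM in Input and 1392 to 2212 CPM in Positive, where 1227 was highest. Of 6 measured smooth muscle genes 1 fell and 5 did not pass, with sums of 199.5 to 421.9 and 238.1 to 323.7 CPM; Acta2, Cnn1 and Lmod1 were not analysed here. The part of mural cells in the Heyl value was not tested.

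Nrarp (Entrez 67122, chromosome 2, 25180758 to 25183332, plus strand) is a Notch target whose protein in turn promotes loss of the receptor's intracellular domain. Its levels were 82.9, 64.5 and 96.0 CPM in Input and 43.5, 57.9 and 57.2 CPM in Positive. The fractions did not overlap, although Input 1223 lay near the upper Positive libraries. Nrarp fell from a mean of 81.2 ± 15.8 CPM to 52.9 ± 8.08 CPM, which is a log2 difference of -0.63 ± 0.19 (adjusted p = 0.0200 by edgeR), and within 1222, 1223 and 1227 the log2 difference was -0.93, -0.16 and -0.75. The call was lost without Input 1227 (-0.49), Positive 1222 (-0.50) or both libraries of 1222 (-0.49) or 1227 (-0.55), and when limma was run on the authors' log2 table (-0.54, adjusted p = 0.0767). GENCODE M21 has Gm38287 on the opposite strand of Nrarp; the use of strand in counting is not given in the sources used here, so reads of the pair could not be separated.

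Markers of brain cells in which Notch acts also differed between the fractions, as did markers of most other cell types. Astrocyte markers fell in 13 of 13 cases (median log2 -3.53), with sums of 6762 to 10780 CPM in Input and 645.2 to 965.9 CPM in Positive. In the neural stem and progenitor list 6 of 8 measured genes fell, 5 of these kept through Input alone, while Nes and Prom1 rose; its sum was 749.7 to 879.2 CPM in Input and 3142 to 3352 CPM in Positive, most of it from Nes (1431 CPM on average in Positive) and Prom1 (1817 CPM). No marker of either list averaged below 1 CPM in Positive. Arterial markers rose in 10 of 12 cases (median 1.71) and none fell, with sums of 403.6 to 509.0 and 1977 to 2219 CPM. Neither direction was particular to these lists. Capillary markers rose in 7 of 7 cases (median 2.81) and venous markers in 3 of 5 (median 2.61). Falls were called for 7 of 7 ependymal, 7 of 7 oligodendrocyte precursor, 8 of 9 neuronal and 6 of 7 fibroblast markers. Of these 4 lists 7, 5, 7 and 3 genes were kept through Input alone. The part of these cell types in the values of Hey2, Nrarp, Hes1 and Hey1 was not tested.

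Promoter sequences were at hand for Hey2, Nrarp and Rbpj. These 3 of the 6 genes are shown because only they had a promoter window, whatever the direction of their fold change. Any relation between the letters of a window and the fold change was not tested. The bases are from RefSeq on build GRCm38.p6, 5′ to 3′ on the gene's strand. Capitals mark GTGGGAA in Hey2 (chr10:30842774-30843033, 250 bases before the start site and the first 10 after it), CACGTG in Nrarp (chr2:25180508-25180757, 250 bases before the start site) and TGGGAA in Rbpj (chr5:53590096-53590345, 250 bases before the first of the 2 start sites listed), each on either strand.
Hey2: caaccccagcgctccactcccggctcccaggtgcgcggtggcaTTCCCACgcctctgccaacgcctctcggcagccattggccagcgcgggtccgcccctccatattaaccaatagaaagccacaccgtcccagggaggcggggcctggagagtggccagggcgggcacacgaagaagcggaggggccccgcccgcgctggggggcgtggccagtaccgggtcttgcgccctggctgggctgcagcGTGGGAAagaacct
Nrarp: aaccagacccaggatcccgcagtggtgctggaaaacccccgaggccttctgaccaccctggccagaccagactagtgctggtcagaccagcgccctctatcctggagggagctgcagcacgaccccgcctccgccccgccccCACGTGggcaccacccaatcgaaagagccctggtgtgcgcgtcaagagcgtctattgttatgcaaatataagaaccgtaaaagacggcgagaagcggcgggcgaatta
Rbpj: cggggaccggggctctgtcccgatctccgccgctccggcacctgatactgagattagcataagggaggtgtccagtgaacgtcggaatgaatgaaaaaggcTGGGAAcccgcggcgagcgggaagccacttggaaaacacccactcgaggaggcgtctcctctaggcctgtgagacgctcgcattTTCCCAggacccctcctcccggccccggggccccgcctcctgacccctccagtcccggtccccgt

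The motifs searched on both strands of the whole 300-base windows were TGGGAA, the core of the Rbpj site, GTGGGAA, a longer form that contains it, and CACGTG, an E-box of the kind Hey proteins are known to bind. The Hey2 window held GTGGGAA at 2 places, from -207 to -201 on the opposite strand and from -4 to 3 across the start site. The longer form occurs in 6.38% and its core in 25.6% of all 32851 promoter windows. The first Rbpj window held the core at 2 places, from -149 to -144 and, on the opposite strand, from -65 to -60, but not the longer form. The Nrarp window held neither, and had CACGTG from -108 to -103, a motif in 7.15% of windows. A match is a description of letters and shows no binding, and no match says only that these letters are not in this window. The Rbpj windows lie inside the span given above for the gene, and the bases before its start at 53555779 were not searched.

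Levels can be set between genes once divided by length. With the union of annotated exons (GENCODE M21) as length, the order in Input was Nrarp at 31.4 ± 6.13 CPM per kb, Hes1 at 14.2 ± 2.83, Hey1 at 13.1 ± 1.63, Heyl at 6.76 ± 1.86, Hey2 at 5.45 ± 1.07 and Rbpj at 5.02 ± 0.15. Nrarp lay above all the others in every Input library, Hes1 and Hey1 overlapped, and so did Heyl, Hey2 and Rbpj. In Positive the order was Hes1 at 42.3 ± 11.7 CPM per kb, Nrarp at 20.5 ± 3.13, Hey1 at 19.2 ± 1.24, Heyl at 7.20 ± 2.69, Rbpj at 5.99 ± 1.67 and Hey2 at 2.63 ± 0.72. Hes1 had passed Nrarp, Nrarp and Hey1 overlapped, Heyl and Rbpj overlapped, and Hey2 lay below every other gene in all Positive libraries. With the median length of basic protein-coding transcripts instead, Rbpj (5440 bases against 12750) moved to the fourth place in both fractions, at 11.8 ± 0.35 and 14.04 ± 3.92 CPM per kb, and Hey1 moved above Nrarp in Positive (25.8 ± 1.67 against 20.5 ± 3.13). Heyl moved to the last place in Input, below Hey2 (7.62 ± 2.09 against 9.82 ± 1.93), with overlapping values.

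Ratios between 2 genes in the same library need no scaling, and compare their fold changes directly. The ratio of Hes1 to Hey2 was 0.83, 1.77 and 1.05 in Input 1222, 1223 and 1227 and 5.24, 10.7 and 6.39 in Positive. It rose by log2 2.65, 2.59 and 2.60 within the 3 numbers, nearly the same shift in each. For Hey1 and Hey2, close relatives, the ratio had a mean log2 of 0.79 in Input and 2.41 in Positive, a difference of 1.62. Both ratios set a gene called higher over Hey2, called lower. Hey2 was kept through Input alone, so both carry its tilt towards a fall. Of all 15 pairs 11 did not overlap between fractions, near the 67.9% found over all pairs of the 10970 genes above 0 in every library, and each of these had an exact two-sided permutation p of 0.10, the smallest that 3 against 3 libraries allow (adjusted p = 0.136 over the 15 pairs). The pairs that overlapped were Hey1 and Heyl (difference 0.49, p = 0.20 by the exact permutation test), Hey1 and Rbpj (0.33, p = 0.40 by the exact permutation test), Heyl and Nrarp (0.67, p = 0.20 by the exact permutation test) and Heyl and Rbpj (-0.16, p = 0.70 by the exact permutation test). This test leaves the replicate numbers out of account.

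**Figure D2:**
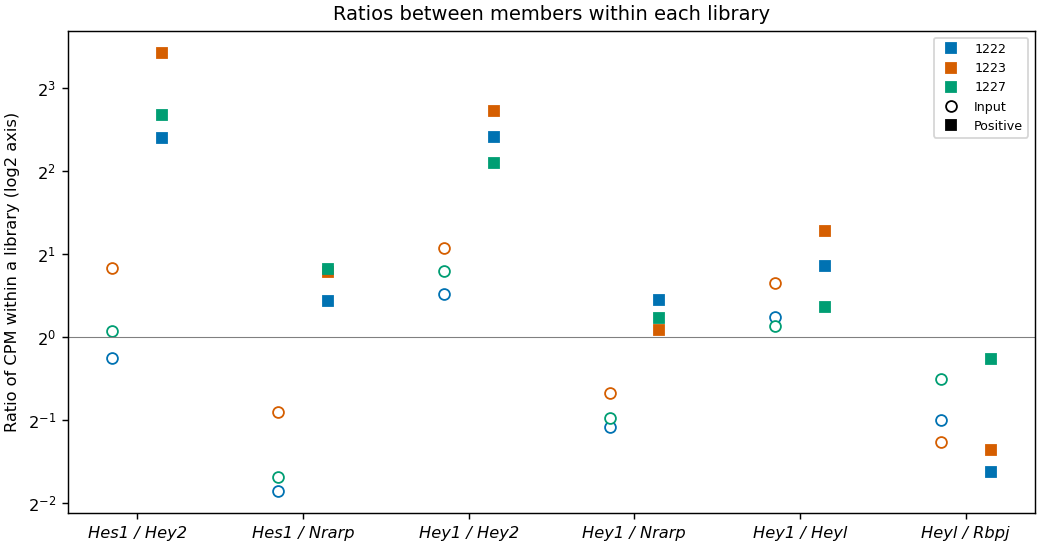
Ratios of CPM between 2 genes in the same library, on a log2 axis, for 6 of the 15 pairs, chosen to show both separated and overlapping pairs. Open circles are Input and filled squares Positive, coloured by replicate number. The ratio of Hes1 to Hey2 runs from 0.83 to 1.77 in Input and from 5.24 to 10.7 in Positive, and the ratio of Heyl to Rbpj overlaps between the fractions.

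The receptors and ligands that act ahead of these genes mostly rose, to be read against 26.1% higher and 29.4% lower over all genes. Of the 4 Notch receptors 3 rose, led by Notch4 (54.8 ± 2.07 to 360.4 ± 21.2 CPM) and Notch1 (156.8 ± 25.3 to 423.1 ± 74.8 CPM). Notch3, a receptor of mural cells, rose by log2 0.69 ± 0.15, a call lost without both libraries of 1227 (0.58), and Notch2 fell by 1.26 ± 0.29 on the log2 scale. Of the 5 ligands measured 4 rose, led by Dll4 at log2 3.02 ± 0.17, with Jag2 at 2.58 ± 0.13 and Jag1 at 1.74 ± 0.14; Dll1, the other one, was kept through Positive alone, which favours a rise. Dner, a neuronal Notch ligand kept through Input alone, fell (102.6 ± 9.03 to 4.19 ± 1.92 CPM). Within libraries, each of the 6 genes was set against Notch1, Notch4, Dll4 and Pecam1, genes that rank high in fold change and were chosen after the values were seen, Pecam1 being also part of the sorting gate. In 23 of these 24 pairs the ratio was lower in every Positive than in every Input library. Over all genes that held for 82.6% of ratios to Notch1, 96.3% to Notch4, 97.4% to Dll4 and 97.0% to Pecam1, so the count is near the background. The exception was Hes1 to Notch1, whose mean log2 ratio was -2.44 in Input and -2.33 in Positive (difference 0.12, exact permutation p = 0.80).

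Over all 9 lists of other Notch pathway genes, 69 of 83 genes were measured; 27 rose, 16 fell and 26 did not pass, with a median log2 fold change of 0.25. The 62.3% called in either direction is near the 55.5% over all genes. Each count below is to be read against the 26.1% of all genes higher and the 29.4% lower in Positive. Among genes of receptor cleavage 3 of 7 rose and 1 fell. They were the proteases Adam10 (log2 1.13 ± 0.12) and Adam17 (0.77 ± 0.15), the gamma-secretase subunit Ncstn (0.40 ± 0.12) and, falling, the subunit Aph1b (-1.33 ± 0.26), kept through Input alone. Ncstn did not pass without Positive 1227 (0.42), without both libraries of 1222 (0.41), 1223 (0.33) or 1227 (0.46), or with scaling by library size alone (0.25). Among 5 genes that add sugars to Notch receptors the fucosyltransferase Pofut1 (log2 0.79 ± 0.16) and the fringe gene Mfng (1.42 ± 0.13) rose. The fringe gene Lfng fell from 139.8 ± 3.20 to 93.3 ± 13.3 CPM (log2 -0.58 ± 0.14) and did not pass when limma was run on the authors' log2 table (-0.52).

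Partners of Rbpj on DNA went both ways. Of 8 coactivator genes 4 rose and 1 fell (median log2 0.45). Among them Snw1 rose by 0.37 ± 0.12, the acetyltransferase gene Kat2b fell by 0.74 ± 0.15 on the log2 scale, and the acetyltransferase gene Ep300 had 0.49 ± 0.20 without passing. Of 16 corepressor genes 5 rose, 2 fell and 9 did not pass (median 0.23). Ctbp1 rose by log2 0.42 ± 0.13, Fhl1, kept through Input alone, fell by 2.64 ± 0.27 and Tle4 by 0.63 ± 0.24, while Aes (0.21 ± 0.14) did not pass. Kat2b and Fhl1 kept their calls in all 14 alternative settings, while the calls of Snw1, Ctbp1 and Tle4 depended on single libraries. Snw1 lost its call when Input 1222 (0.39), Input 1227 (0.39), Positive 1223 (0.34) or Positive 1227 (0.35) was left out, and also when any number was left out or libraries were scaled by size alone (0.21). Ctbp1 lost its call without Positive 1223 (0.35), without any one number and with scaling by size alone (0.26). Tle4, whose fractions overlapped, lost its call when Input 1222 (-0.50), Input 1227 (-0.55), Positive 1223 (-0.74) or Positive 1227 (-0.45) was left out, without both libraries of 1222 (-0.59) or 1227 (-0.37), with the replicate number as a block (-0.64) and with limma (-0.53). Ep300 passed without Input 1222 (0.70), without both libraries of 1222 (0.55) and with the block (0.50). The count of 4 coactivators that rose became 2 without Input 1223, Positive 1222 or Positive 1223. Without Positive 1223 it includes Kat2a (0.55), which is not one of the 4. The count became 1 without Input 1227, without both libraries of 1227 or with scaling by size alone. The 5 corepressors became 3 without Input 1227, Positive 1222 or Positive 1223. They became 2 with scaling by size alone or without both libraries of 1223 or of 1227.

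Of 14 genes of ubiquitination and endocytosis of Notch receptors and ligands 5 fell, 1 rose and 8 did not pass (median log2 -0.14). The ligase gene Nedd4, the one that rose, went from 587.3 ± 63.1 to 779.8 ± 50.3 CPM (log2 0.41 ± 0.14). Its call was lost when Input 1227 (0.32) or Positive 1222 (0.35), 1223 (0.42) or 1227 (0.45) was left out, without any one number and with scaling by size alone (0.25). Itch, another ligase gene, had log2 -0.12 ± 0.16 and Numb, whose protein antagonises Notch, 0.54 ± 0.24, neither passing; Numb passed without Input 1222 (0.76) and with the replicate block (0.59).

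Other target genes of the pathway went both ways. Of 3 further Hes and related repressors measured, Hes5, known from neural progenitors and kept through Input alone, fell by 3.66 ± 0.29 on the log2 scale (25.9 ± 5.42 to 2.08 ± 0.53 CPM). Hes6 fell by 0.66 ± 0.22. Its call was lost when Input 1222 (-0.52), Input 1227 (-0.59), Positive 1222 (-0.67), Positive 1223 (-0.67) or Positive 1227 (-0.64) was left out. The call of Hes6 was also lost without both libraries of 1222 (-0.54) or of 1227 (-0.57) and with limma (-0.54). Bhlhe40 had log2 0.23 ± 0.21 without passing. Of 11 other Notch-responsive genes 7 rose and 4 fell (median log2 1.14); Snai2, one of the 7, was kept through Positive alone. The endothelial factor Gata2 rose by log2 2.56 ± 0.14, the cell cycle inhibitor gene Cdkn1a by 1.80 ± 0.25 and the cyclin gene Ccnd1 by 1.15 ± 0.14. Hes5, Dtx1 (-3.47 ± 0.21), the glial factor Sox9 (-2.99 ± 0.34) and Myc (-1.95 ± 0.32) fell; Hes5 and Sox9 also stand in the progenitor and astrocyte marker lists. All 7 named in these lists as kept through Input alone (Dner, Aph1b, Fhl1, Hes5, Dtx1, Myc and Hey2) carry the tilt towards a fall that this minimum gives.

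**Figure D3:**
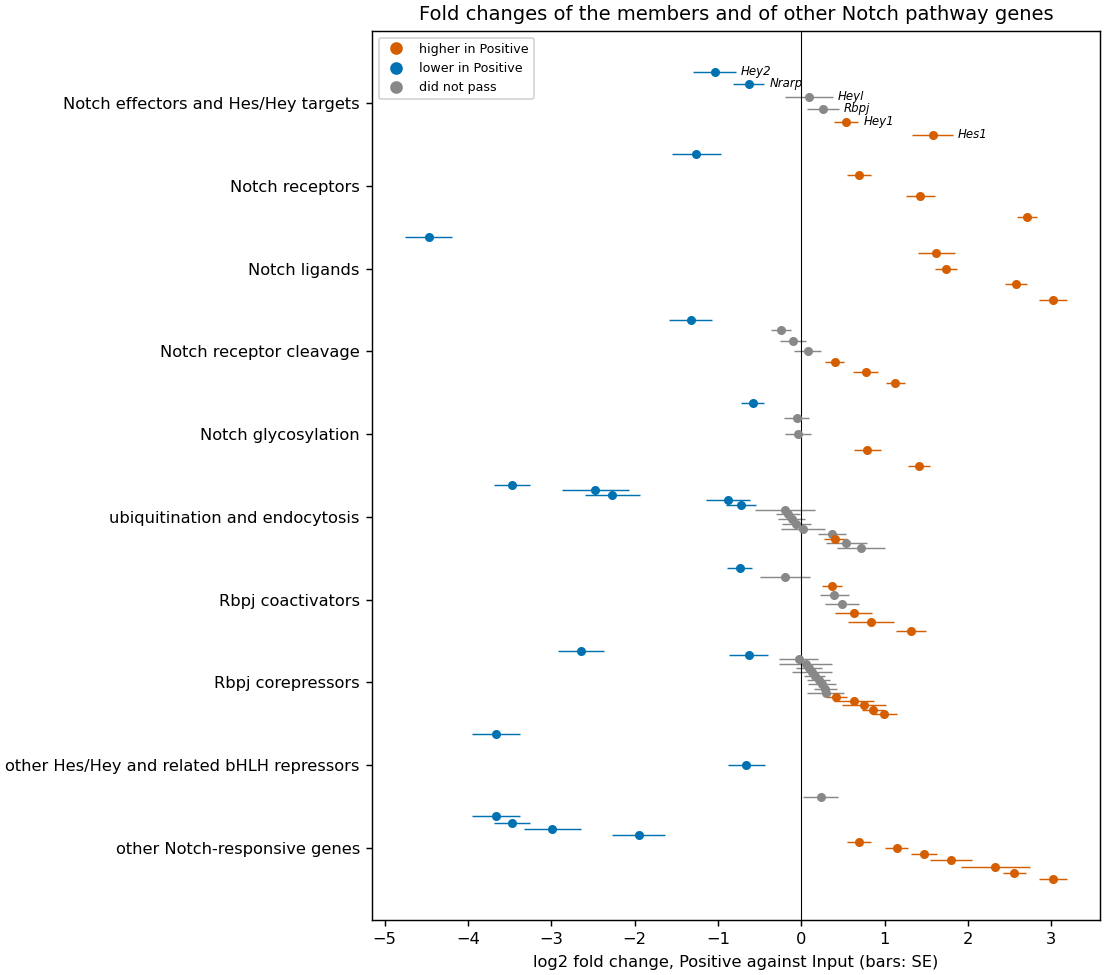
Log2 fold changes of Positive against Input (horizontal axis, bars give the SE) for the 6 genes and for each list of other Notch pathway genes (rows), one point per gene and coloured by call. The 6 genes run from -1.04 for Hey2 to 1.58 for Hes1, while ligands reach 3.02 for Dll4 and -4.47 for Dner; genes in 2 lists appear in both.

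The genes with the profile nearest to each of the 6 were found as the smallest root mean square difference of mean-centred log2 CPM over the 6 libraries, among 5410 genes above the median level. They were Cd59a (0.13), Cxx1a (0.15) and Gsta4 (0.17) for Hes1, and Ak3 (0.04), Eci2 (0.05) and Slc25a1 (0.05) for Hey1. For Hey2 they were Fech (0.13), Tpi1 (0.16) and Gnptg (0.16), and for Nrarp Rnf181 (0.08), G6pc3 (0.09) and S100a1 (0.09). For Heyl they were Emp2 (0.16), Nr1d2 (0.17) and Rcan3 (0.19), and for Rbpj Tdrd7 (0.10), Phrf1 (0.10) and Ftl1 (0.10). With 6 libraries in 2 groups many genes share such a profile, and the likeness is a description only.

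**Figure D4:**
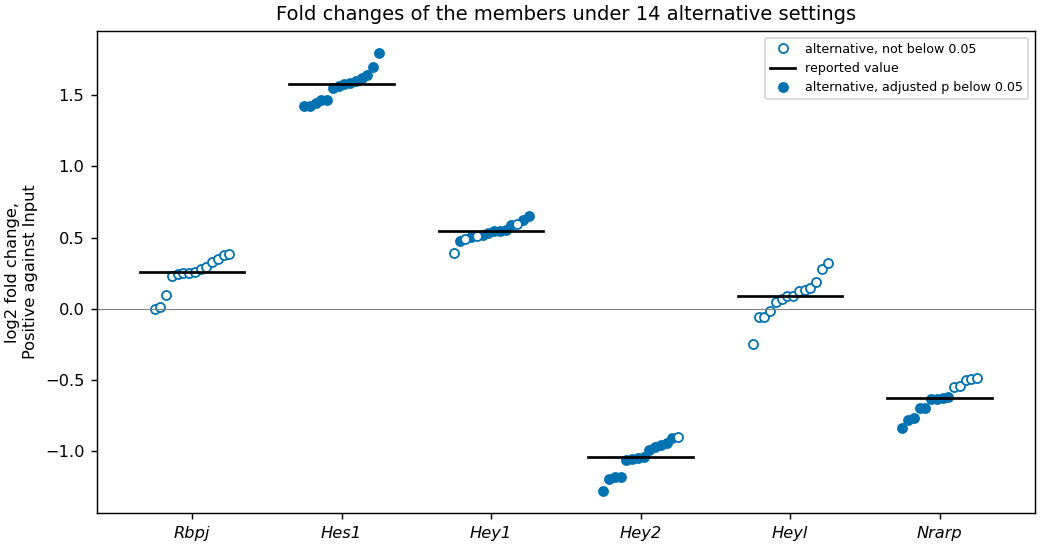
Log2 fold changes of the 6 genes (vertical axis) in the main fit, as black lines, and under 14 alternative settings, as circles, filled where the adjusted p was below 0.05. Hes1 stays between 1.42 and 1.79 and is called in all 14, Hey2 in 13, Hey1 in 10 and Nrarp in 9, and Heyl and Rbpj in none.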

How the data were processed

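Total RNA of 3 Input and 3 Positive libraries was sequenced with a directional kit, per the labels. The authors deposited estimated counts per gene (raw, mostly not whole) and log2 normalised values, whose reference per gene the file does not define. A gene had to reach a raw value of 50 in every library of 1 condition or both to stay in the table, per the file headers. Per the submitters' processing notes the build was mm10 and the tools include DESeq. The aligner, the counter and whether strand was used in counting: not given in the sources used here.

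For testing, estimated counts as deposited were first made whole by rounding. The quasi-likelihood test of edgeR 4.0.16 (R 4.3.3), with TMM factors and fraction as the only term, was adjusted by Benjamini-Hochberg over 10989 genes; filterByExpr (minimum count 10) removed 0 genes. The p-values rest on the spread between these libraries, since the labels tie no number to a mouse. Alternatives were DESeq2 1.42.0, no TMM factor, no filter, a replicate block, each library or number left out, and limma 3.58.1 on the deposited log2 values. Deviations from the fraction means correlated at 0.45, 0.23 and 0.30 within 1222, 1223 and 1227, so the numbers were taken to pair the libraries; the main test and the permutation tests do not use the pairing, and the block does. Lengths came from GENCODE M21.

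The 6 genes and all lists were chosen with earlier results of these data known. Genes named from a list are its 3 highest by level and those called against its main direction; the 3 genes with the nearest profile are named for each of the 6, without predicted or pseudogene names. A result that the rule would name is not reported here.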

Additional observations from a re-analysis of the deposited data

How the results depend on the processing

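Across 14 alternatives Hes1 kept its call (log2 1.42 to 1.79). Hey1 did not pass without a TMM factor (0.39) or without both libraries of 1222 (0.51) or 1227 (0.60), and leaving out single libraries gave 0.48 to 0.65. Hey2 did not pass without both libraries of 1222 (-0.90; single libraries -1.28 to -0.91). Nrarp did not pass without both libraries of 1222 (-0.49) or 1227 (-0.55) or with limma on the authors' log2 table (-0.54; single libraries -0.76 to -0.49). Heyl, not called anywhere, changed sign without a TMM factor (-0.060) and without both libraries of 1227 (-0.014; single libraries -0.25 to 0.32), and Rbpj ran from -0.00048 to 0.39 over single libraries left out. Without a TMM factor the median of all genes moved by -0.16. The count of all genes higher was 2870, 1741 without both libraries of 1227 and 2253 to 2755 without single libraries; 3227 were lower (2812 to 3183 without single libraries). The 27 and 16 pathway genes became 21 to 29 and 14 to 16 without single libraries. With the replicate block no call of the 6 genes changed. The log2 fold changes with their SE were then 1.55 ± 0.12 for Hes1, 0.55 ± 0.11 for Hey1 and -1.06 ± 0.18 for Hey2. They were 0.07 ± 0.13 for Heyl, -0.63 ± 0.17 for Nrarp and 0.23 ± 0.15 for Rbpj. With it Mib1 (0.75), Fbxw7 (0.37), Numb (0.59), Ep300 (0.50), Rnf181 (-0.47) and S100a1 (-0.59) passed and Tle4 (-0.64) did not; it changed no other call among the pathway and named genes. The difference between Heyl and Rbpj reversed without both libraries of 1222 (0.072). Emp2 and Nr1d2 changed sign among single libraries left out (-0.13 to 0.60 and -0.039 to 0.39). The setting without a filter removed nothing. The cause of these changes was not tested. Depth was lowest in the 1223 libraries, where Hey2 had 42 estimated counts in Positive; without both of them its log2 fold change was -1.05.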

Other observations

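The Deltex genes, which encode ubiquitin ligases that bind Notch receptors, were lower in Positive in 3 of 4 cases; they were picked out after their values were seen. Dtx1 went from 77.7, 74.7 and 96.0 CPM in Input 1222, 1223 and 1227 to 5.92, 9.53 and 7.52 CPM in Positive. Dtx4 went from 135.2, 52.9 and 96.4 to 23.9, 15.5 and 19.1 CPM, a log2 fold change of -2.27 ± 0.33 (adjusted p = 0.000442 by edgeR), and Dtx3 fell by 0.72 ± 0.18 on the log2 scale, a call lost without both libraries of 1223. Dtx2 had log2 0.02 ± 0.26 and did not pass. The background share of genes lower in Positive was 29.4%.

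Hes5 has a promoter window that holds GTGGGAA at 2 places, from -226 to -220 on the opposite strand and from -83 to -77. It was the only gene searched outside the 6, and was picked with earlier results of these data known. Like Hey2, whose window also holds 2 matches, it fell and was kept through Input alone. GTGGGAA occurs in 6.38% of all promoter windows, and the share with 2 matches was not counted. The windows of Nrarp and Rbpj held no GTGGGAA. Hes1, Hey1 and Heyl were not searched.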
